A study of Mus musculus with 8 samples.

Results

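The 9 genes described here, Pdgfrb, Rgs5, Kcnj8, Abcc9, Vtn, Anpep, Acta2, Tagln and Myh11, are markers of the mural cells of blood vessels. They were chosen by name, 6 as genes of pericytes and 3 as genes of vascular smooth muscle cells, from the 25834 genes of the count table, and 9 of 9 were among the 16251 genes that passed the filter on low counts. The study asked what the loss of SAP97, the synaptic scaffold protein encoded by Dlg1, does in the mouse brain, and its RNA sequencing compared hippocampi of male mice, 4 control and 4 SAP97-cKO, with 1 library per mouse. SAP97-cKO mice were Nestin-cre+/-; SAP97fl/fl. The methods describe controls as littermates that carried Nes-cre+/- or SAP97fl/fl or were wild-type, and which of these each control library was is not given in the sources used here. An age at harvest is stated for the mice used for western blots, and that of the sequenced mice is not given in those sources. Cre was driven by the Nestin promoter, which is active in neural progenitors, and recombination in cells of the vessel wall was not analysed here. Each library held 37388177 to 37426572 counts.

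Pericytes lie on the capillary wall within the basement membrane shared with the endothelium, and they are recruited when endothelial PDGF-B binds the receptor PDGFRβ on their surface. In the brain they are needed for the blood-brain barrier. Smooth muscle cells wrap arteries and arterioles, carry a contractile apparatus of actin, myosin and their regulators, and set vessel diameter.

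Dlg1 was read to check the labels. It had 4338 ± 336 normalized counts (SD, n = 4) in control and 2393 ± 470 (SD, n = 4) in SAP97-cKO hippocampi, with a log2 fold change of -0.86 (SE 0.12) and an FDR of 0.143 from the edgeR quasi-likelihood test. No SAP97-cKO library reached the lowest control library, and when libraries were left out in turn its adjusted p ranged from 0.0120 to 0.524 and passed the threshold in 5 of 8 cases. Normalized counts are the deposited counts scaled by the TMM factors of the libraries, a log2 fold change below 0 means lower in SAP97-cKO, and the threshold for a call was an FDR under 0.25 over all genes tested. The 8 genes listed for hippocampal neurons were all detected, with Neurod6 the highest per length at 103 CPM per kb of exon in control and 110 in SAP97-cKO.

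The mural genes were lower on average in SAP97-cKO hippocampi, with the vitronectin gene Vtn and the smooth muscle gene Tagln at about the same reduced share of control, 66.1% and 63.9%, and the receptor gene Pdgfrb at 99.1%. The log2 fold change was below 0 in 9 of 9, against 52.8% of all genes tested. Its median was -0.27, against -0.012, and the middle value of the 9 was -0.10 if SAP97-cKO replicate 4 was left out. Of the 9, 4 had an unadjusted p under 0.05 and were lower (Vtn, Tagln, Acta2 and Anpep), against 7.01% of all genes tested, and 0 had such a p and were higher, against 4.73%. In Vtn and Tagln each SAP97-cKO library was below each control library, which held for 3.47% of all genes tested. With edgeR, 0 of the 9 passed the FDR threshold, which 0.283% of all genes tested passed as lower and 0.0123% as higher. DESeq2 put 4 of the 9 past the same threshold as lower, against 3.62% of all genes tested, and 0 as higher, against 2.74%, with adjusted p of 0.0275 for Vtn, 0.0317 for Tagln, 0.141 for Acta2 and 0.163 for Anpep. In bulk tissue, fewer mural cells and less RNA per mural cell cannot be told apart. Genes of other cells were lower as well, with a median log2 fold change of -0.26 over 16 endothelial genes and of -1.0 over 15 fibroblast genes, and their part in the values of the mural genes was not tested. Both lists were chosen with earlier results of these data known.

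SAP97-cKO replicate 4 was the lowest of the 8 libraries in each of the 9 genes, a position it held in 15.4% of all genes tested. Over all genes tested, control replicate 4 held that position more often, in 23.7%. SAP97-cKO replicate 4 was lowest in 9 of 12 other pericyte, 13 of 16 endothelial, 12 of 15 fibroblast and 10 of 12 choroid plexus genes. It was lowest in 8 of 10 other contractile, 8 of 14 signalling, 3 of 5 erythroid and 0 of 8 hippocampal neuron genes. Its levels ran from 41.0% of the control mean in Anpep to 86.6% in Pdgfrb. Without this library the edgeR test called 0 of all 16508 genes then tested, the 9 included, and 6 of 9 had a log2 fold change below 0, against 51.9% of all genes. Vtn (-0.44), Tagln (-0.50), Acta2 (-0.38) and Anpep (-0.66) were still lower at an unadjusted p under 0.05, against 3.72% of all genes, whereas Pdgfrb (0.0501), Kcnj8 (0.0445) and Abcc9 (0.0829) were then slightly above 0. Other libraries also decided calls of edgeR. Without control replicate 1 it called Vtn, Tagln and Anpep (adjusted p of 0.191, 0.206 and 0.209), when 5.83% of all genes tested were called lower. With replicate 1 of SAP97-cKO left out it called Tagln, Vtn and Acta2 (adjusted p of 0.189, 0.204 and 0.245), when 2.73% of all genes tested were called lower. Over the settings in which 1 library was left out, the adjusted p ranged from 0.191 to 0.646 for Vtn, 0.189 to 0.695 for Tagln, 0.245 to 0.695 for Acta2 and 0.209 to 0.704 for Anpep.

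**Figure D1:**
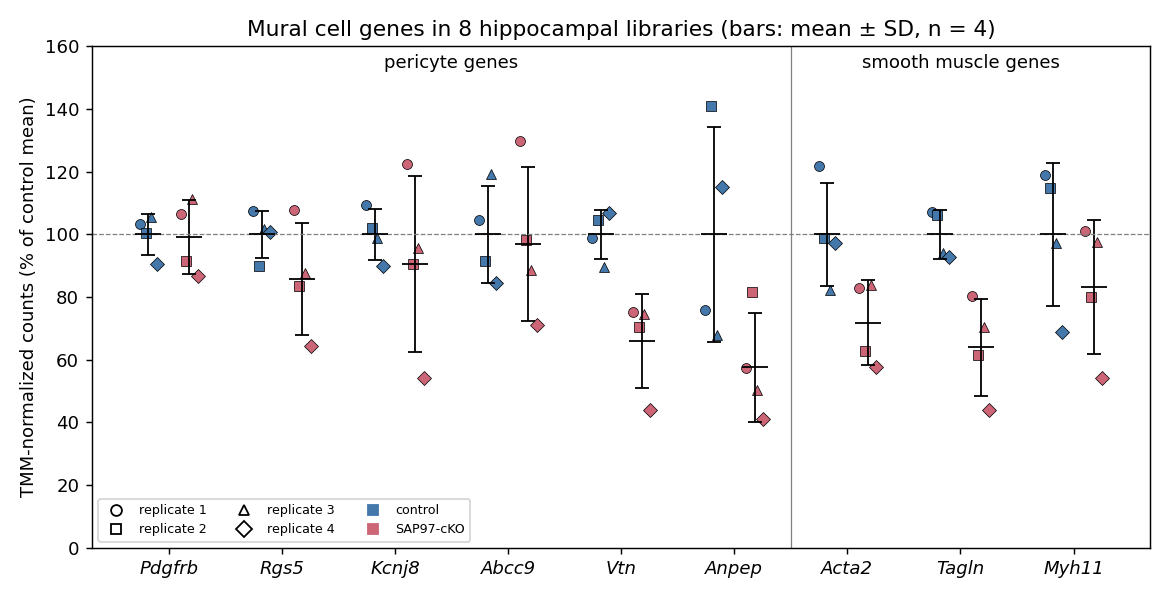
TMM-normalized counts of the 9 mural genes in each of 8 hippocampal libraries, as a percent of the control mean (y axis), with controls in blue, SAP97-cKO in red, the marker shape giving the replicate number, and black bars the mean ± SD of 4 libraries. The diamond of SAP97-cKO replicate 4 is the lowest point of each gene, and in Vtn and Tagln the red points all lie below the blue ones.

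Among the pericyte genes, Pdgfrb encodes the receptor through which PDGF-B recruits and keeps pericytes. Pdgfrb (ENSMUSG00000024620, chr18:61045150-61085061, plus strand of GRCm38) had 779, 757, 796 and 683 normalized counts in control replicates 1 to 4 and 804, 691, 840 and 653 in SAP97-cKO replicates 1 to 4. The groups overlapped over nearly their whole range, and the highest library was SAP97-cKO replicate 3. The means were 754 ± 49.8 and 747 ± 89.3 (SD, n = 4 each), with a log2 fold change of -0.0135 (SE 0.0976) and an FDR of 0.966.

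Vtn encodes vitronectin, an adhesive glycoprotein that binds integrins and that brain pericytes secrete. Vtn (ENSMUSG00000017344, chr11:78499091-78502324, plus strand) had 2055, 2176, 1860 and 2219 normalized counts in the controls and 1561, 1467, 1550 and 911 in SAP97-cKO. All 4 SAP97-cKO libraries were below all 4 controls, and within SAP97-cKO replicates 1 to 3 lay close together with replicate 4 well below them. The means were 2077 ± 161 and 1372 ± 310 (SD, n = 4 each), with a log2 fold change of -0.60 (SE 0.15), an unadjusted p of 0.00265 from edgeR and an FDR of 0.316.

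The ratio of Vtn reads to Pdgfrb reads compares the pair within a library and was computed after their values had been seen, so it carries no test. It was 2.64, 2.87, 2.34 and 3.25 in the controls and 1.94, 2.12, 1.85 and 1.40 in SAP97-cKO. The ratio was lower in each SAP97-cKO library than in each control.

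Anpep encodes aminopeptidase N (CD13), a membrane peptidase found on pericytes and also on fibroblasts and myeloid cells. Anpep (ENSMUSG00000039062, chr7:79821803-79861059, minus strand) had 117, 218, 105 and 178 normalized counts in the controls and 88.6, 126, 78.0 and 63.3 in SAP97-cKO. The controls spread more than in any other of the 9 genes, with a coefficient of variation of 34.4%, and SAP97-cKO replicate 2 lay above control replicates 1 and 3. Its mean was 57.7% of control, the lowest share among the 9, with a log2 fold change of -0.79 (SE 0.28), an unadjusted p of 0.0162 from edgeR and an FDR of 0.364. Without control replicate 2, the highest library, the unadjusted p was 0.0572.

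Rgs5 encodes a GTPase-activating protein for G protein alpha subunits and is among the most widely used pericyte markers. Rgs5 (ENSMUSG00000026678, chr1:169655501-169695813, plus strand) had 4013, 3350, 3798 and 3766 normalized counts in the controls and 4027, 3117, 3273 and 2404 in SAP97-cKO. SAP97-cKO replicate 1 was the highest of the 8 libraries, while replicates 2, 3 and 4 were below the lowest control. The log2 fold change was -0.22 (SE 0.13, FDR 0.523), and it was -0.10 with SAP97-cKO replicate 4 left out and -0.34 with replicate 1 of that group left out.

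Kcnj8 and Abcc9 encode the pore (Kir6.1) and the regulatory subunit (SUR2) of the ATP-sensitive potassium channel of mural cells, and they are neighbours on the minus strand of chromosome 6, with 16247 bases between them. Kcnj8 (ENSMUSG00000030247, chr6:142564837-142571614) had 134, 125, 121 and 110 normalized counts in the controls and 150, 111, 117 and 66.4 in SAP97-cKO. Abcc9 (ENSMUSG00000030249, chr6:142587862-142702315) had 297, 260, 339 and 240 in the controls and 369, 279, 252 and 202 in SAP97-cKO. In both genes the SAP97-cKO group held the highest and the lowest library of the 8, replicates 1 and 4, so that its range enclosed that of the controls. The log2 fold changes were -0.14 (SE 0.22, FDR 0.805) and -0.0435 (SE 0.18, FDR 0.936). Kcnj8 reads per Abcc9 read averaged 0.436 ± 0.0535 in the controls and 0.399 ± 0.0548 in SAP97-cKO (SD, n = 4 each), a difference within 1 SD. The paralogs that form the channel of neurons and endocrine cells, Kcnj11 (0.23, FDR 0.478) and Abcc8 (0.28, FDR 0.565), had log2 fold changes above 0 and did not pass the test. Exons of Abcc9 share 158 bases with an antisense gene, 5330439B14Rik, which had 2 reads in SAP97-cKO replicate 2 and 0 in the other libraries.

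The 3 smooth muscle genes encode parts of the contractile apparatus. Tagln encodes transgelin (SM22α), an actin-binding protein of smooth muscle. Tagln (ENSMUSG00000032085, chr9:45929619-45936058, minus strand) had 422, 419, 370 and 365 normalized counts in the controls and 316, 242, 277 and 173 in SAP97-cKO. The groups did not overlap, and the highest SAP97-cKO library was still below the lowest control. The means were 394 ± 30.6 and 252 ± 60.4 (SD, n = 4 each), with a log2 fold change of -0.64 (SE 0.17), an unadjusted p of 0.00282 from edgeR and an FDR of 0.316. Of the 1988 exon bases of Tagln, 1241 lie opposite exons of an antisense gene, Gm48529, whose counts were not analysed here, and 108 opposite Pcsk7. Pcsk7 had 627, 641, 683 and 642 reads in the controls and 694, 662, 701 and 655 in SAP97-cKO, and was not lower in SAP97-cKO as Tagln was. Whether the counting used strand is not given in the sources used here, so reads of such partners cannot be told apart from those of Tagln.

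Acta2 encodes smooth muscle alpha-actin, the actin of the contractile filaments. Acta2 (ENSMUSG00000035783, chr19:34241090-34255590, minus strand) had 723, 586, 488 and 578 normalized counts in the controls and 493, 373, 498 and 342 in SAP97-cKO. The overlap came from control replicate 3, which lay just below SAP97-cKO replicates 1 and 3, while the other controls were above all SAP97-cKO libraries. The means were 594 ± 97.2 and 427 ± 80.9 (SD, n = 4 each), or 71.8% of control, with a log2 fold change of -0.48 (SE 0.16), an unadjusted p of 0.0116 from edgeR and an FDR of 0.347. Reads of the actin genes can be hard to assign because their coding sequences are alike. Among the other actins of muscle, Actc1 had 1 read and Actg2 21 reads over all 8 libraries, and Acta1 had a log2 fold change of 0.20 (FDR 0.692), as against 0.038 (FDR 0.870) for Actb and 0.18 (FDR 0.426) for Actg1 of the cytoplasm.

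Myh11 encodes the smooth muscle myosin heavy chain, the motor of the same filaments. Myh11 (ENSMUSG00000018830, chr16:14194535-14291372, minus strand) ranged from 321 to 553 normalized counts in the controls and from 252 to 470 in SAP97-cKO, with replicate 4 the lowest library of each group. The groups overlapped, the mean was 83.2% of control, and the log2 fold change of -0.27 (SE 0.21, FDR 0.620) was -0.10 if replicate 4 of SAP97-cKO was left out and -0.41 if replicate 4 of the controls was left out. Tagln reads per Myh11 read were 0.763, 0.782, 0.818 and 1.14 in the controls and 0.671, 0.650, 0.609 and 0.687 in SAP97-cKO. Each SAP97-cKO library was below each control in this ratio, which was chosen after the values had been seen and was not tested.

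Levels of different genes were compared as CPM per kb of exon, averaged over 4 libraries. In control hippocampi the order was Vtn (27.4), Rgs5 (22.0), Acta2 (7.23), Tagln (5.30), Pdgfrb (3.68), Myh11 (1.64), Kcnj8 (1.28), Anpep (0.999) and Abcc9 (0.907). The control libraries of neighbours in this order did not overlap from Vtn down to Myh11, whereas Myh11 and Kcnj8, Kcnj8 and Anpep, and Anpep and Abcc9 overlapped and did not differ beyond their spread. Myh11 and Kcnj8 lay above Abcc9 in all 4 controls. In SAP97-cKO, Rgs5 (18.9) and Vtn (18.1) exchanged places, as did Pdgfrb (3.65) and Tagln (3.39), and Abcc9 (0.880) and Anpep (0.576). Abcc9 was above Anpep in all 4 SAP97-cKO libraries, and Pdgfrb was above Tagln in replicates 2, 3 and 4 of that group. Vtn was above Rgs5 per length in all 4 controls, but in SAP97-cKO it was above in replicates 2 and 3 and below in replicates 1 and 4.

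The spread between libraries was wider in SAP97-cKO than in control for 8 of the 9 genes. The coefficient of variation went from 7.42% in control to 20.8% in SAP97-cKO for Rgs5, from 8.22% to 30.8% for Kcnj8, from 7.74% to 22.6% for Vtn and from 7.78% to 24.0% for Tagln, while Anpep had 34.4% and 30.3%. In a comparison added after the data had been seen, SAP97-cKO replicate 4 was left out, which narrows the spread by construction because it is the lowest library of each gene. The spread was then wider than in control for 5 of the 9, among them Abcc9 (20.3%), Kcnj8 (16.5%) and Tagln (13.3%), and narrower for Vtn (3.36%), Acta2 (15.5%), Myh11 (12.2%) and Anpep (26.1%). The difference in spread was not tested. How many of all genes tested had a wider spread in SAP97-cKO was not computed, so the count is not shown to be particular to the mural genes. Summed over the 9 genes, CPM was 243, 225, 223 and 226 in the controls and 221, 181, 196 and 136 in SAP97-cKO. The 4 controls were alike in this sum, SAP97-cKO replicate 1 lay just under them, and replicates 2, 3 and 4 were further down.

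Correlations between the 9 genes were computed across the 8 libraries. Of 36 pairs, 35 had a Pearson correlation above 0 (log2 CPM), with a median r of 0.70, and of 0.68 after the group means had been subtracted. Without SAP97-cKO replicate 4 the median r was 0.34 and 27 of 36 pairs were above 0, so much of the shared variation rested on that library. By the exact permutation test over the 40320 pairings, 17 pairs had an unadjusted p under 0.05 and 9 an adjusted p under 0.05 over the 36 pairs. The pairings were made over all 8 libraries without regard to group, so a difference between the groups enters these p-values. Pairs of other genes were not counted, so these counts are not shown to be particular to the mural genes. With Spearman's rho 0 of 36 passed after adjustment.

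The highest Pearson correlation over the 8 libraries was between Vtn, listed here for pericytes, and Tagln, listed for smooth muscle. It was r = 0.96 (exact permutation p = 7.44e-04, adjusted 0.0268) with rho = 0.83 (exact permutation p = 0.0154, adjusted 0.131), and r was still 0.96 without the pair of libraries farthest from the median of Vtn and 0.88 within groups. Within groups the highest r was that of Kcnj8 and Tagln (0.98). Over all 8 libraries the highest rho was that of Kcnj8 and Myh11 (0.90), and rho within groups was not computed. Acta2 and Tagln, both of the contractile apparatus, had r = 0.91 (exact permutation p = 0.00154, adjusted 0.0277) and rho = 0.83 (exact permutation p = 0.0154, adjusted 0.131), with r = 0.85 without the libraries farthest from the median of Acta2. The channel genes Kcnj8 and Abcc9 had r = 0.83 (exact permutation p = 0.00593, adjusted 0.0390) and rho = 0.83 (exact permutation p = 0.0154, adjusted 0.131), and their r dropped to 0.49 without SAP97-cKO replicates 1 and 4, so that the relation rested in part on these libraries. Pdgfrb and Anpep, which lay at the ends of the range of fold changes, had the lowest correlation of the 36, r = -0.10 (exact permutation p = 0.801, adjusted 0.823), with rho = -0.26 (exact permutation p = 0.536, adjusted 0.644) and r = -0.57 without the libraries farthest from the median of Pdgfrb.

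Among 14057 genes with a mean CPM above 1, those whose log2 CPM over the 8 libraries was most like the mean of the 6 pericyte genes were Hspa12b (r = 0.981), Arhgap29 (0.979), Tns2 (0.977), Col5a2 (0.974) and Edn3 (0.970). For the mean of the 3 smooth muscle genes they were Tpm2 (0.974), Rbpms (0.972), Zfp383 (0.961), Tinagl1 (0.950) and Cp (0.948). These correlations served only to rank genes, and without SAP97-cKO replicate 4 they were 0.87 to 0.95. None of these 10 genes passed the FDR threshold in edgeR, with log2 fold changes from -0.20 in Zfp383 to -0.66 in Tinagl1.

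Other genes of pericytes were read from a list of 12, all of which were tested. Beside the counts of this and the later lists stand the shares over all genes tested, 7.01% lower and 4.73% higher at an unadjusted p under 0.05, 52.8% below 0, and 3.62% lower and 2.74% higher by DESeq2. In edgeR 0 of 12 passed the threshold in either direction, 2 were lower and 1 was higher at an unadjusted p under 0.05. The median log2 fold change was -0.22, beside -0.18 for the 6 pericyte genes. The latter depended on SAP97-cKO replicate 4, without which Pdgfrb (0.0501), Kcnj8 (0.0445) and Abcc9 (0.0829) were above 0 and Rgs5 was at -0.10. Cox4i2, a subunit of cytochrome c oxidase, had 49.0, 39.9, 44.7 and 39.8 normalized counts in the controls and 28.5, 31.9, 19.2 and 13.5 in SAP97-cKO (log2 fold change -0.89, SE 0.28, FDR 0.347). Des, the intermediate filament protein desmin, had a log2 fold change of -0.58 (SE 0.21, FDR 0.368). In both genes the groups did not overlap. DESeq2 called 2 of the 12 as lower, Cox4i2 and Des, and 1 as higher, Cspg4. In edgeR Cspg4 was called without control replicate 1 (adjusted p of 0.241) and Des with SAP97-cKO replicate 1 left out (0.189).

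Cspg4 went the other way. It encodes the proteoglycan NG2, which is shared by pericytes and oligodendrocyte precursor cells, and had 584, 632, 588 and 498 normalized counts in the controls and 693, 679, 659 and 764 in SAP97-cKO. Each SAP97-cKO library was above each control, and SAP97-cKO replicate 4, the lowest library of the 9 mural genes, was the highest here. The log2 fold change was 0.28 (SE 0.0925, FDR 0.348). Pdgfra, the receptor gene of oligodendrocyte precursor cells and fibroblasts, had a log2 fold change of 0.12 (FDR 0.568). Mcam, an adhesion molecule that was the highest per length of the list at 7.28 CPM per kb in control and 6.74 in SAP97-cKO, had a log2 fold change of -0.11 (FDR 0.831).

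Other genes of the contractile apparatus lay below 0 in 10 of 10 tested, with a median log2 fold change of -0.41, beside -0.48 for Acta2, Tagln and Myh11. Of the 12 listed, Actg2 and Myocd (21 and 60 reads over all libraries) did not pass the filter. In edgeR 0 passed the FDR threshold, and 4 were lower at an unadjusted p under 0.05, while DESeq2 called 1, Tpm2, as lower, and edgeR called Myl9 with SAP97-cKO replicate 1 left out (adjusted p of 0.242). Tpm2, which encodes a tropomyosin, had 266, 251, 223 and 231 normalized counts in the controls and 205, 168, 217 and 121 in SAP97-cKO, with a log2 fold change of -0.45 (SE 0.17, FDR 0.383). Its groups did not overlap. Myl9, the regulatory light chain of smooth muscle myosin and the highest of the list per length (10.8 CPM per kb in control), had a log2 fold change of -0.36 (FDR 0.399), beside -0.29 (FDR 0.409) for Cald1, the caldesmon gene, and -0.58 (FDR 0.411) for Mustn1.

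Genes for signals between the vessel wall and mural cells were read from a list of 14, all tested, of which 0 passed the threshold in edgeR, 4 were lower and 2 were higher at an unadjusted p under 0.05, and the median log2 fold change was -0.19. DESeq2 called 2 of the 14 as lower, Pdgfd and Angpt2. Among the edgeR alternatives, Pdgfd was called without scaling (adjusted p of 0.197) and without a filter (0.191). Without control replicate 1 edgeR called Pdgfd, Angpt2 and Tgfbr2 as lower and Pdgfb as higher (0.179, 0.206, 0.232 and 0.216), and with SAP97-cKO replicate 1 left out Pdgfd, Angpt2 and Tgfbr2 as lower (0.185, 0.212 and 0.214). The list held the PDGF ligands Pdgfb and Pdgfd, which bind PDGFRβ and lay on opposite sides. Pdgfb, the ligand made by endothelium, had 887, 792, 766 and 811 normalized counts in the controls and 914, 1063, 920 and 884 in SAP97-cKO (log2 fold change 0.22, SE 0.0825, FDR 0.380). Pdgfd had 319, 448, 413 and 314 in the controls and 278, 234, 211 and 218 in SAP97-cKO (log2 fold change -0.67, SE 0.15, FDR 0.283). In Pdgfd the groups did not overlap, while in Pdgfb SAP97-cKO replicate 4 lay just below the highest control.

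The angiopoietins, which act on the endothelial receptor Tek, were also on opposite sides. Angpt2, the ligand that mostly opposes Tek signalling, had 85.0, 89.7, 96.2 and 54.4 normalized counts in the controls and 47.9, 34.8, 52.7 and 24.9 in SAP97-cKO, without overlap (log2 fold change -1.02, SE 0.27, FDR 0.316). Angpt1, the activating ligand, had a log2 fold change of 0.27 (SE 0.12, FDR 0.422) with overlapping groups, and Tek of -0.14 (FDR 0.643). Edn3, an endothelin, had -0.41 (FDR 0.415, no overlap), or -0.26 without SAP97-cKO replicate 4, and the TGF-β receptor gene Tgfbr2 -0.33 (FDR 0.387). S1pr1, a sphingosine 1-phosphate receptor gene that astrocytes express as well, was the highest per length at 59.9 CPM per kb in control and 54.9 in SAP97-cKO.

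Other cells of the vessels and the brain surface were compared by lists, because their RNA is collected with that of mural cells. The endothelial list had 16 of 16 genes tested, with 0 called in edgeR, 3 lower and 0 higher at an unadjusted p under 0.05, 15 of 16 below 0 and a median log2 fold change of -0.26. DESeq2 called 2 of the 16 as lower, Slc2a1 and Slco1c1, and edgeR called Slc2a1 without control replicate 1 (adjusted p of 0.216) and with SAP97-cKO replicate 1 left out (0.176). Its summed CPM was 530, 557, 526 and 464 in the controls and 533, 432, 433 and 351 in SAP97-cKO, with Slc2a1, the glucose transporter of the blood-brain barrier, the most abundant. SAP97-cKO replicate 1 was at the level of the controls in this sum and replicate 4 the lowest. Slc2a1 had a log2 fold change of -0.32 (SE 0.0965, FDR 0.341, no overlap), the organic anion transporter gene Slco1c1 -0.46 (FDR 0.373) and Vwf, the von Willebrand factor gene, -0.54 (FDR 0.416). With control replicate 2 left out, Slco1c1 was at -0.30 and Vwf at -0.36.

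Genes of meningeal and perivascular fibroblasts fell in 7 of 15 tested, and 11 were lower and 0 higher at an unadjusted p under 0.05, with a median log2 fold change of -1.0. Their summed CPM was 411, 651, 408 and 408 in the controls and 284, 382, 343 and 259 in SAP97-cKO, with Igf2 the most abundant. The highest SAP97-cKO sum (382) was below the lowest control sum (408). In a sum added after the data had been seen, without Igf2, CPM was 310, 356, 242 and 331 in the controls and 192, 254, 237 and 214 in SAP97-cKO, and control replicate 3 lay below SAP97-cKO replicate 2. In both sums SAP97-cKO replicate 1, which lay near the controls in the mural and endothelial sums, was below each control. Dcn, part of both sums, varied widely, with 2565, 1527, 1185 and 3069 normalized counts in the controls and 610, 2482, 2300 and 2911 in SAP97-cKO. A sum without Dcn was not computed. Ogn (-1.32, FDR 0.143), Col1a2 (-1.01, FDR 0.190), Slc22a6 (-1.58, FDR 0.201), Mgp (-1.0, FDR 0.201), Col3a1 (-1.22, FDR 0.201), Aldh1a2 (-1.25, FDR 0.201) and Slc6a13 (-1.14, with an FDR just under the threshold) passed, and Dcn (-0.00762, FDR 0.995) did not. At the same unadjusted threshold Col1a1 (-0.54, FDR 0.283), Lum (-0.71, FDR 0.315), Fmod (-1.44, FDR 0.316) and Islr (-0.73, FDR 0.316) were lower. Without control replicate 2, SAP97-cKO replicate 3 or SAP97-cKO replicate 4, edgeR called 0 genes of the whole table, those of this list included. If control replicate 4 was left out, Col3a1 (adjusted p 0.259), Slc22a6 (0.293), Aldh1a2, Mgp and Slc6a13 (0.302 each) did not pass. Their log2 fold changes were then -0.94 to -1.56. Slc6a13 also did not pass with DESeq2 size factors (0.252) or a minimum of 10 counts in all libraries (0.261). DESeq2 called 11 of the 15 as lower.

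Genes of the choroid plexus epithelium differed most between libraries. Their summed CPM was 1227, 6958, 3889 and 180 in the controls and 581, 2395, 1377 and 105 in SAP97-cKO, with Ttr the most abundant, and 12 of 12 had a log2 fold change below 0 (median -1.42), with 0 called in edgeR, 0 in DESeq2 and 0 at an unadjusted p under 0.05 in edgeR. Control replicate 4 and SAP97-cKO replicate 4 had the lowest sums. In the summed CPM of the 9 mural genes these libraries had 226 and 136. The erythroid list had 5 of 5 genes tested and below 0, with 0 called in edgeR, 2 lower at an unadjusted p under 0.05 (Hba-a2 -0.61, FDR 0.383, and Hbb-bt -0.77, FDR 0.371) and a median of -0.55. DESeq2 called both (adjusted p of 0.215 and 0.163), as did edgeR without control replicate 1 (0.208 and 0.210), and without control replicate 4 the log2 fold changes were -0.33 and -0.43. Its sum was 66.7, 84.8, 75.9 and 151 CPM in the controls and 54.3, 79.7, 76.5 and 52.3 in SAP97-cKO, with Hbb-bs the most abundant. The 8 hippocampal neuron genes had a median log2 fold change of 0.0613, with 0 called in edgeR and 1 (Wfs1 0.34, FDR 0.347) higher at an unadjusted p under 0.05. DESeq2 called Wfs1 (adjusted p of 0.124), as did edgeR without control replicate 1 (0.216). Their sum was 1360, 1214, 1223 and 979 CPM in the controls and 1462, 982, 1326 and 1436 in SAP97-cKO. In each of these lists 0 genes were at 0 in all libraries. The part of choroid plexus and red blood cells in the values of the 9 mural genes was not tested either.

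**Figure D2:**
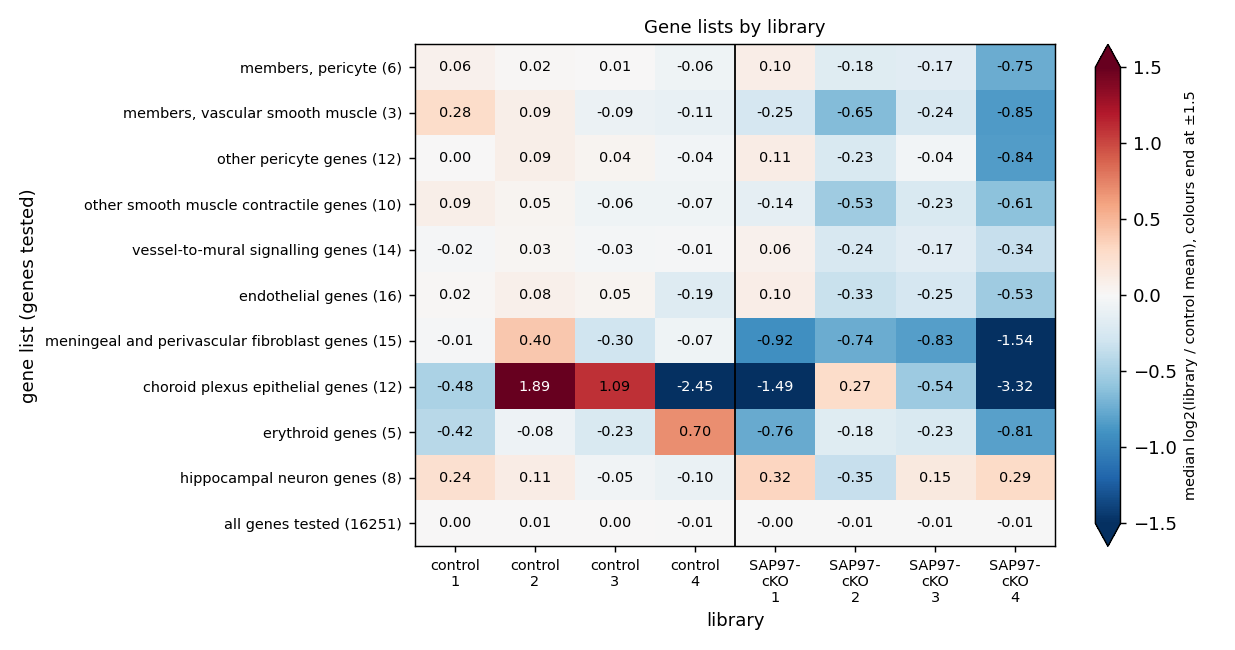
Median over the genes of a list (rows, with the number tested in parentheses) of log2 of the library's normalized count over the control mean, for each of 8 libraries (columns), with blue below and red above 0 and the value printed in each cell. The pericyte and smooth muscle rows are lowest in SAP97-cKO replicate 4 (-0.75 and -0.85), where the fibroblast and choroid plexus rows are lowest too (-1.54 and -3.32), and the row of all genes stays near 0.

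Promoters were searched for the CArG box, the element that serum response factor binds in contractile genes, in the 250 bases before the start given by RefSeq (GRCm38.p6). The pattern is a palindrome, so that both strands were covered. Windows were found for 6 of the 9 genes (Rgs5, Kcnj8, Abcc9, Vtn, Anpep and Acta2), and Pdgfrb, Tagln and Myh11 had none in the table. The strict box was in 0 of these 6, against 1.47% of 32851 windows. A looser box, in which 1 of the 6 central letters may be other than A or T, was chosen after the strict search and was in 8.59% of all windows, with 0.670% holding 2 or more. Acta2 had 2 such boxes and Rgs5, Kcnj8, Abcc9, Vtn and Anpep had 0. Of the contractile list, 10 genes had a window. Myl9 had 2 looser boxes, of which the box from 161 bases before the start is also a strict box, and the other 9 (Cald1, Cnn1, Lmod1, Mustn1, Mylk, Pln, Smtn, Synpo2 and Tpm2), which had lower means in SAP97-cKO as well, had 0 of either kind. The boxes of Acta2 and Myl9 are shown as those found in these windows, each with 10 bases on either side, 5′ to 3′ on the strand of the gene, with the box in capitals.
Acta2, chr19:34255438-34255467, minus strand, box from 84 bases before the start: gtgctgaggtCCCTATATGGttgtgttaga
Acta2, chr19:34255388-34255417, minus strand, box from 34 bases before the start: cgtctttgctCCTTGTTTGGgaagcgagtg
Myl9, chr2:156775293-156775322, plus strand, box from 161 bases before the start: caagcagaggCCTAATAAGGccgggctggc
Myl9, chr2:156775355-156775384, plus strand, box from 99 bases before the start: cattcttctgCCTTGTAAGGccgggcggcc
Both stretches of Acta2 lie before the RefSeq start but inside the untranslated part of the opening exon of a longer GENCODE M21 transcript, and both stretches of Myl9 lie in no annotated exon. Binding at these boxes was not measured in these libraries.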

How the data were processed

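RNA was sequenced from the hippocampus of 8 male mice, 4 control and 4 SAP97-cKO, and groups and replicate numbers were taken from the sample titles. The authors aligned reads with STAR 2.5.3a to the mouse genome (mm10, GRCm38.p5), removed ribosomal and mitochondrial reads, resampled libraries to a common depth with the PORT pipeline and deposited a whole-number count per gene and library. Resampling leaves nearly equal totals, so that differences in original depth cannot be seen in the counts. Columns of the authors' own comparison in the deposited table (log2 fold change, limma-voom p-value, Benjamini-Hochberg q-value) were not used. The chi-square per gene between library pairs was 9.076 to 67.23, above sampling noise, and no library was a repeat of another.

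Genes were filtered with filterByExpr (minimum count 10, minimum total 15), which removed 9583, scaled by TMM (factors 0.9637 to 1.031) and compared in R 4.3.3 by the edgeR 4.0.16 quasi-likelihood test, with p-values adjusted over the 16251 genes tested by the Benjamini-Hochberg method. The biological coefficient of variation was 0.1517. A standard error is the log2 fold change divided by the square root of F. The test was also run on simulated data with the same dispersion for all genes and no shared effect of a library. That setting is simpler than these libraries, so the run does not show how the test behaves on them. Alternatives were DESeq2 1.42.0, limma-voom (limma 3.58.1), edgeR with library totals or with DESeq2 size factors, no filter or a minimum of 10 counts in all libraries, a block for replicate number, an FDR of 0.05, and leaving out each library in turn. Correlations used log2 CPM with a prior count of 2, list medians by library a pseudocount of 1, and two-sided exact permutation tests over pairings. Coordinates and exon lengths are from GENCODE M21 (25696 of 25834 identifiers matched), promoters from RefSeq, and plots from matplotlib 3.10.9.

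The lists were other pericyte, other smooth muscle contractile, vessel-to-mural signalling, endothelial, fibroblast, choroid plexus, erythroid and hippocampal neuron genes, and the channel and actin paralogs. The members and lists were chosen with earlier results of these data known. Named genes were the 9 genes, Dlg1, list genes at an unadjusted p under 0.05 or highest per length, the paralogs, and the 5 genes most like each of the pericyte and smooth muscle means. Dcn, Pdgfra, Tek, Actb and the other genes named beside these were chosen after their values had been seen.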

Additional observations from a re-analysis of the deposited data

Results flagged for a closer look

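In Vtn, the lowest SAP97-cKO library, replicate 4 with 911 normalized counts, lay far from the other SAP97-cKO libraries, with a gap to the nearest of 0.856 of the group's range. In the summed CPM of the fibroblast genes, the highest control library, replicate 2 with 651, lay far from the other controls, with a gap of 0.988 of the range. Igf2 alone had 295 CPM in that library and 100, 166 and 77.3 in control replicates 1, 3 and 4, and without Igf2 the control sums were 310, 356, 242 and 331. The summed CPM of the choroid plexus genes had the same order in the controls, with 6958 in replicate 2 and 1227, 3889 and 180 in replicates 1, 3 and 4. The part of choroid plexus in the Igf2 values was not tested. Both gaps exceed Dixon's critical value for a group of 4. These were 2 among 18 groups of mural genes and 16 groups of list sums examined, and chance marks about 1 in 20 groups.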

How the results depend on the processing

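With edgeR 48 genes passed an FDR of 0.25. The count was 50 with limma-voom, 1033 with DESeq2, 95 without scaling, 104 without a filter, 0 at an FDR of 0.05, and 0 to 1675 with 1 library left out (0 without control replicate 2, SAP97-cKO replicate 3 or SAP97-cKO replicate 4, where 1403, 1259 and 1167 genes had an unadjusted p under 0.05). Of the 9 mural genes 0 passed, and 0 with limma-voom, against 4 with DESeq2, 1 without a filter (Vtn, adjusted p 0.210) and 0 to 3 with 1 library left out, and 3 to 5 had an unadjusted p under 0.05 over all settings. The replicate block put 256 genes and 2 mural genes (Tagln, adjusted p 0.144, and Vtn, 0.230) past the threshold, and of the vessel lists Pdgfd (0.197), Angpt2 (0.140), Slco1c1 (0.140) and Vwf (0.216). Correlations of same-numbered libraries were -0.062, 0.201, 0.0898 and 0.259, and 5 of 8 libraries correlated best with their own number, a hint of shared variation. The labels give the numbers no meaning and not every correlation was above 0.1, so the numbers were not taken as pairs. Of the log2 fold changes, 3 turned sign with 1 library left out, over ranges of -0.0682 to 0.0501 in Pdgfrb, -0.31 to 0.0445 in Kcnj8 and -0.21 to 0.0829 in Abcc9. The other 6 mural genes were below 0 under the settings run. Of the pairs of mural genes, 9 passed with TMM-scaled log2 CPM and 14 without TMM. Causes of these differences were not tested. Kcnj8 (935 over the 8 libraries) and Anpep (979) had the fewest reads of the 9, and the part of depth in their values was not tested.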
